A study of Homo sapiens with 24 samples.

Results

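The genes followed here hold, take up and release iron in HepG2 cells. They are the ferritin subunits FTH1 and FTL, the transferrin receptors TFRC and TFR2, the iron exporter SLC40A1, its peptide hormone HAMP, the iron regulatory proteins IREB2 and ACO1, and the ferritin autophagy receptor NCOA4. They were taken by gene name, as genes of iron storage and uptake, and make up 9 of the 18915 genes counted. All 9 were found, 8 had enough counts to be tested, and HAMP did not.

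HepG2 is an established line from a human liver cancer. Its cells were treated for 10 h with the vehicle DMSO, with 50 nM ISRIB, with 20 µM nelfinavir, with 50 nM bortezomib, or with 50 nM bortezomib together with either 20 µM nelfinavir or 50 nM ISRIB. Bortezomib inhibits the proteasome, nelfinavir is an HIV protease inhibitor that also activates stress signalling through eIF2alpha and ATF4, and ISRIB blunts the effect of phosphorylated eIF2alpha on translation. Each of the 6 treatments was measured in 4 libraries, 24 in all, which the labels call biological replicates, as counts of reads at the 3′ ends of polyadenylated RNA. The design asks what each drug did alone, and what nelfinavir or ISRIB changed when bortezomib was present.

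Total counts per library ran from 5950624 to 6943164 in DMSO, from 6076114 to 6900004 in ISRIB, from 6489941 to 6936576 in nelfinavir, from 5380478 to 5995495 in bortezomib, from 5417434 to 6173764 in bortezomib with nelfinavir and from 5154533 to 5886463 in bortezomib with ISRIB. Levels are given below in CPM, a gene's counts relative to the library total after scaling by edgeR's TMM factors, which make the bulk of genes alike between libraries. The share of mitochondrially encoded transcripts was 21.5% ± 1.32 for DMSO and 33.8% ± 1.19 for bortezomib, and 27.2% ± 2.26 with nelfinavir added to it, without overlap with bortezomib alone, and 36.1% ± 3.13 with ISRIB added (SD, n = 4 each). A fit without these transcripts again called 4 of the genes higher and 2 lower with bortezomib, where it called 25.7% and 27.5% of all genes. The cells carried the markers of their label. All 15 hepatocyte markers were measured, ALB the most abundant of them. Their sum lay between 17800 and 19600 CPM in DMSO, 17100 and 18100 in ISRIB, 18400 and 20100 in nelfinavir, 12200 and 12900 in bortezomib, 8780 and 10200 with nelfinavir added to it and 12400 and 13600 with ISRIB added, and 12 of the 15 fell with bortezomib (25.8% of all genes), 15 under library totals alone (49.4% of all genes), and 10 when nelfinavir was added to it (13.4% of all genes). Of the same 15 markers, 1 rose when nelfinavir was added to bortezomib (15.6% of all genes). With ISRIB added to bortezomib 6 rose and 2 fell (6.91% and 5.34% of all genes), and with nelfinavir alone 3 rose and 0 fell (10.4% and 8.84%). Of 6 fibroblast and 5 endothelial markers 2 and 1 were measured, and these summed to at most 1.11 and 0.194 CPM in any library. Of 6 immune markers 4 were measured, and these summed to between 337 and 420 CPM in DMSO, 338 and 439 in ISRIB, 244 and 361 in nelfinavir, 74.6 and 127 in bortezomib, 66.8 and 131 with nelfinavir added to it and 113 and 233 with ISRIB added. LYZ made up 98.8% of that sum in DMSO and 96.6% in bortezomib, and CD79A had fewer than 10 counts in all libraries together. The part of these marker levels in the results was not tested.

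Iron enters hepatocytes bound to transferrin through TFRC and TFR2, is stored inside shells of ferritin heavy and light chains, and leaves through SLC40A1 (ferroportin), which hepcidin, the product of HAMP, removes from the membrane. When iron is low, the iron regulatory proteins ACO1 (IRP1) and IREB2 (IRP2) bind hairpins in messenger RNAs called iron-responsive elements (IREs): those in 5′ UTRs then block translation of ferritin and ferroportin, and those in the 3′ UTR of TFRC protect that mRNA from decay. NCOA4 carries ferritin to autophagosomes, which frees its iron, and IREB2 protein is itself degraded by the proteasome. RNA alone was measured here, so protein levels and translation were not analysed.

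Some of the hairpins found, those of FTL, SLC40A1 and TFRC, are shown because they are the sequence feature through which this regulation is known to work. One transcript per gene (the Ensembl canonical one in GENCODE on GRCh37) was searched for the loop CAGTGN, its last base not G, flanked by 5 base pairs with G-T pairs allowed and an unpaired C before them on the 5′ side. The loop stands in capitals, 5′ to 3′ on the transcript.
FTL, 5′ UTR, chr19:49468592-49468620, plus strand: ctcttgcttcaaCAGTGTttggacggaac
SLC40A1, 5′ UTR, chr2:190445387-190445415, minus strand: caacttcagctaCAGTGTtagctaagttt
TFRC, 3′ UTR, chr3:195777850-195777878, minus strand: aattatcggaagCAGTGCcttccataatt
TFRC, 3′ UTR, chr3:195777446-195777474, minus strand: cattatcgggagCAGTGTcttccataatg
TFRC, 3′ UTR, chr3:195777381-195777409, minus strand: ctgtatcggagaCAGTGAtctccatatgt
TFRC, 3′ UTR, chr3:195777334-195777362, minus strand: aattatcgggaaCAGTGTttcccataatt
Of 19553 protein-coding transcripts searched, 10 (0.0511%) held such a hairpin in the 5′ UTR and 97 (0.496%) in the 3′ UTR.

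Bortezomib moved more of these genes than any other single drug, as it did of all genes, so this order is not particular to them. Of the 8 genes tested, 4 were called higher than in DMSO (FTH1, FTL, TFRC and SLC40A1) and 2 lower (TFR2 and NCOA4), where 27.6% of all 12685 genes tested were called higher and 25.8% lower, but with library totals alone as the scaling the calls were 1 higher (FTL) and 4 lower (TFR2, NCOA4, IREB2 and ACO1), where 11.7% and 49.4% of all genes were called, FTH1 and TFRC turning to negative values and SLC40A1 losing its call. With more than 1 in 2 of all genes called, 2 lower of 8 is near the background. A gene counts as called when its p from the quasi-likelihood test of edgeR, adjusted over all genes tested by the Benjamini-Hochberg method, is under 0.05, and every adjusted p below is from that test unless it is of a count ratio or belongs to the alternatives, 1 of which is the DESeq2 test. Over all genes the calls were 3498 higher and 3275 lower with TMM and 1490 higher and 6266 lower with library totals alone. That scaling moved the median log2 fold change of all genes in bortezomib against DMSO to −0.495, from 0.0017 with TMM, and relative to that median FTH1 stood at 0.32, TFRC at 0.49 and SLC40A1 at 0.89. The TMM factors ran from 1.19 to 1.24 in DMSO and from 0.846 to 0.869 in bortezomib. The paper made each library from the same amount of total RNA and pooled the libraries equally. Library totals therefore cannot show whether there were fewer cells or less RNA per cell.

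Nelfinavir alone raised 3 of the 8 genes (FTH1, FTL and TFR2) and lowered NCOA4, where 10.4% and 8.84% of all genes were called higher and lower. With ISRIB alone edgeR called 0 of the 8 in either direction, as it did 0% of all genes. At an unadjusted p under 0.05 the ISRIB counts were 0 of 8 and 703 of 12685, and DESeq2 called 0 of the 8, with 1 of all genes higher and 20 lower. When nelfinavir was added to bortezomib, 2 of the 8 fell (FTH1 and TFRC) and 0 rose, against 13.4% and 15.6% of all genes. When ISRIB was added to bortezomib, SLC40A1 rose and FTH1 fell, against 6.91% and 5.34%. Of these calls, TFR2 with nelfinavir alone, FTH1 with nelfinavir added and SLC40A1 with ISRIB added each ended on leaving out single libraries, as given below. Comparisons with DMSO share the DMSO libraries, and both additions share the bortezomib libraries, so their values are set side by side and not correlated.

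**Figure D1:**
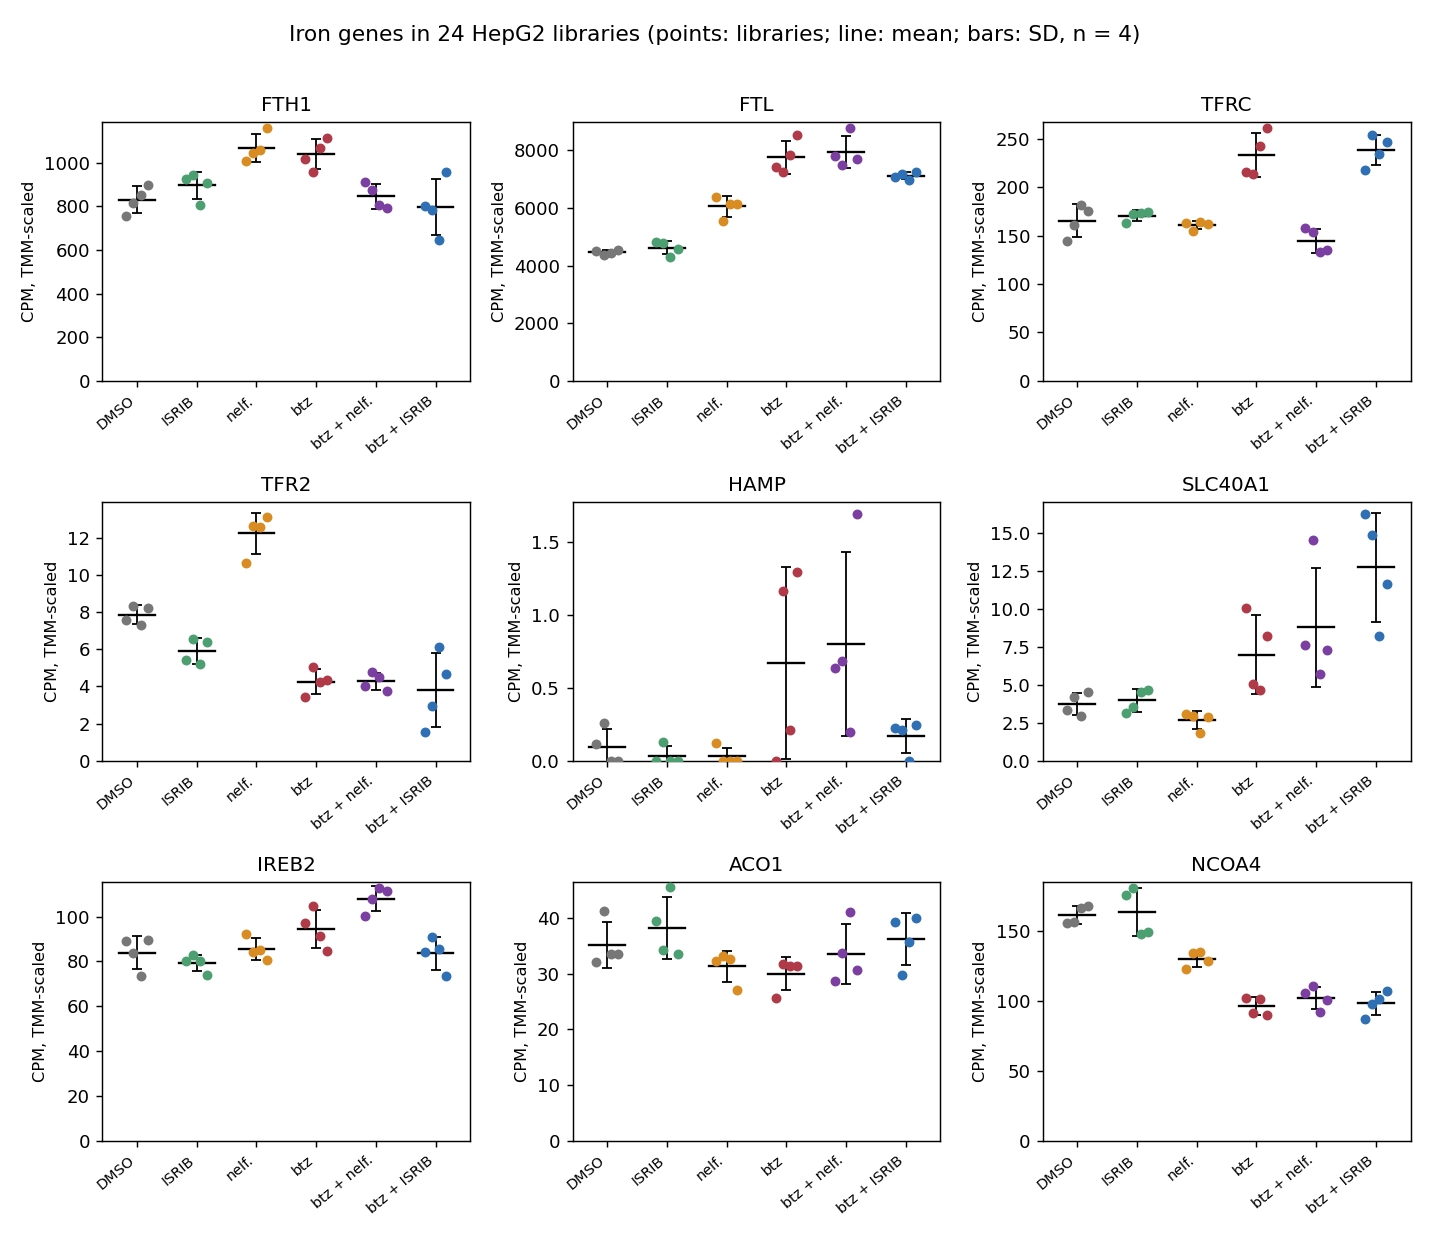
Level of each of the 9 genes in CPM (y axis, TMM-scaled, starting at 0) in the 6 treatments (x axis), with a point per library, the mean as a line and the SD as bars (n = 4). FTL lies between 4368 and 4548 CPM in DMSO and between 7239 and 8525 CPM in bortezomib, while TFRC lies between 133 and 158 CPM when nelfinavir is added to bortezomib.

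**Figure D2:**
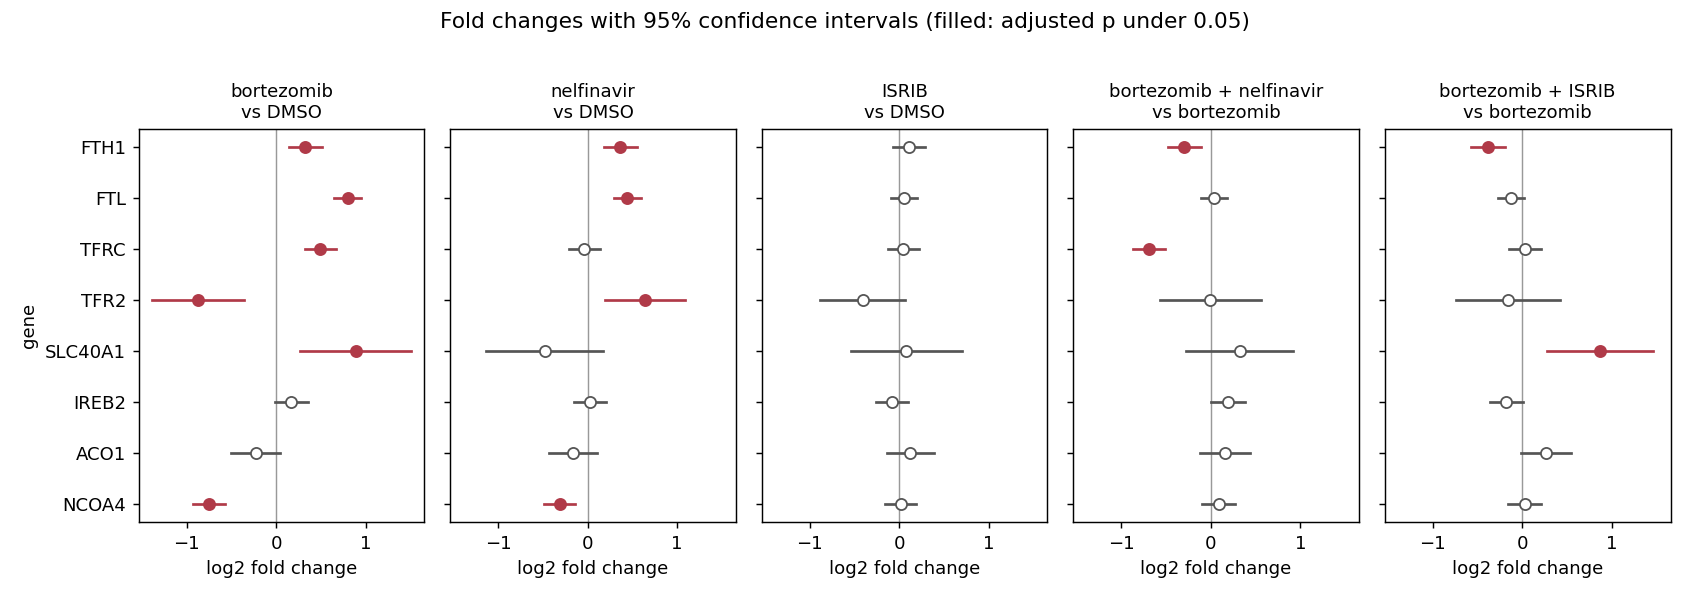
Log2 fold change (x axis) of the 8 genes tested (y axis) in 5 comparisons, with 95% confidence intervals from edgeR's model and filled points where the adjusted p was under 0.05. The ISRIB panel holds open points alone, TFRC stands at −0.69 where nelfinavir was added to bortezomib, and the positive values of FTH1, TFRC and IREB2 in bortezomib against DMSO turn negative under library totals alone.

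FTH1 encodes the ferritin heavy chain, which oxidises iron for storage (ENSG00000167996, GRCh37 chr11:61727190-61735106, minus strand). Its levels were 755, 813, 851 and 899 CPM in the 4 DMSO libraries, and 1005, 1044, 1057 and 1160 CPM in nelfinavir. In bortezomib they were 1017, 958, 1068 and 1113 CPM, and in ISRIB 924, 943, 805 and 908 CPM. All nelfinavir and all bortezomib libraries lay above all DMSO libraries on this scale. The log2 fold change against DMSO was 0.36 with nelfinavir (SE 0.0903, adjusted p = 0.00339) and 0.33 with bortezomib (SE 0.0904, adjusted p = 0.0029), but −0.17 with bortezomib under library totals alone (adjusted p = 0.0821, range over all alternatives 0.000555 to 0.0821).

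The combinations did not keep these higher FTH1 levels. With nelfinavir added to bortezomib the libraries held 913, 872, 808 and 790 CPM, and with ISRIB added 800, 784, 645 and 959 CPM. Every library with nelfinavir added lay below every bortezomib library, while 1 of the 4 with ISRIB added, at 959 CPM, just overlapped the lowest bortezomib library. FTH1 fell by 0.30 on the log2 scale when nelfinavir was added (SE 0.0906, adjusted p = 0.013) and by 0.38 when ISRIB was added (SE 0.0907, adjusted p = 0.00407). The first of these calls ended without bortezomib replicate 3 (−0.25, adjusted p = 0.061) or 4 (−0.225, adjusted p = 0.0818), and without replicate 3 (−0.25, adjusted p = 0.0525) or 4 (−0.23, adjusted p = 0.0764) of the combination. In order of mean level, nelfinavir (1067 CPM) and bortezomib (1039 CPM) overlapped each other and stood above the next group, ISRIB (895 CPM), and from there down all neighbours overlapped, through the nelfinavir combination (846 CPM), DMSO (829 CPM) and the ISRIB combination (797 CPM).

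FTH1 reads carry an uncertainty from copies of the gene. Its whole transcript matched 3 other places in the genome over at least 80 bases at 97% identity or more, the longest alignment 922 bases, and its last 400 bases matched 9, the longest 120 bases at 100% identity. The counting could have split such reads between places. The last exon also lies across from BEST1 on the other strand. BEST1 had between 0 and 10 counts per library, at most 0.219% of the FTH1 count, and how reads over both genes were counted is not given in the sources used here.

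FTL, the ferritin light chain, helps to mineralise the stored iron (ENSG00000087086, GRCh37 chr19:49468566-49470136, plus strand). Its levels were 4496, 4368, 4425 and 4548 CPM in DMSO, 6389, 5553, 6157 and 6151 CPM in nelfinavir and 7438, 7239, 7837 and 8525 CPM in bortezomib. The 3 groups formed steps without overlap. FTL rose 1.36-fold with nelfinavir (log2 0.44, SE 0.0726, adjusted p = 2.31e-05) and 1.74-fold with bortezomib (log2 0.80, SE 0.073, adjusted p = 4.12e-11), the latter still called at 0.30 under library totals alone (adjusted p = 0.000913, range over the alternatives 2.47e-29 to 0.000913).

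Adding a drug to bortezomib left no called difference in FTL. The levels were 7810, 7504, 8767 and 7692 CPM with nelfinavir added and 7092, 7174, 6964 and 7248 CPM with ISRIB added. Both sets overlapped bortezomib alone, the ISRIB combination only with its highest library. The log2 differences from bortezomib were 0.03 (95% CI −0.11 to 0.18, adjusted p = 0.768) and −0.12 (95% CI −0.27 to 0.02, adjusted p = 0.28). ISRIB alone, at 4626 ± 229 CPM (SD, n = 4), overlapped DMSO at 4459 ± 79.1 CPM (SD, n = 4). The FTL transcript matched 1 other place in the genome by the same measure. That alignment, of 871 bases at 97.015% identity, was as long as the transcript. Searched alone, the last 400 bases, the 3′ end that the reads come from, matched 0 at 97% identity or more. The 3′ end may therefore have a copy just below that cut.

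The balance of the ferritin chains can be followed within a library, where scaling cancels. These are ratios of read counts, to be compared between treatments and not read as ratios of molecules. The FTH1 count was 16.8%, 18.6%, 19.2% and 19.8% of the FTL count in DMSO, and 13.7%, 13.2%, 13.6% and 13.1% in bortezomib. With nelfinavir added it was 11.7%, 11.6%, 9.21% and 10.3%, and with ISRIB added 11.3%, 10.9%, 9.26% and 13.2%. Bortezomib lay below DMSO and the nelfinavir combination below bortezomib, both without overlap, and the ISRIB combination overlapped bortezomib in 1 library. The mean log2 ratio differed by −0.47 between bortezomib and DMSO and by −0.33 on adding nelfinavir, each at p = 0.0286 in a two-sided exact permutation test, the smallest that 4 libraries against 4 can give, but at an adjusted p of 0.0571 over 10 such exact tests, so neither passed the correction with all libraries. Without DMSO replicate 3 the bortezomib difference was −0.453, at the same exact p but an adjusted p of 0.0476, as another of the 10 tests then had a lower p. Leaving out bortezomib replicate 1, 2, 3 or 4 raised the adjusted p of this difference, and of that on adding nelfinavir, to 0.0714. The difference on adding ISRIB was −0.27 (exact permutation p = 0.0571, adjusted 0.0816), and −0.358 without replicate 4 of the combination (exact permutation p = 0.0286, adjusted 0.0476), which lowers the adjusted p of the other differences at p = 0.0286 alike. For nelfinavir alone it was −0.08 (exact permutation p = 0.4, adjusted 0.457) and for ISRIB alone 0.06 (exact permutation p = 0.429, adjusted 0.457), with overlap in both.

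**Figure D3:**
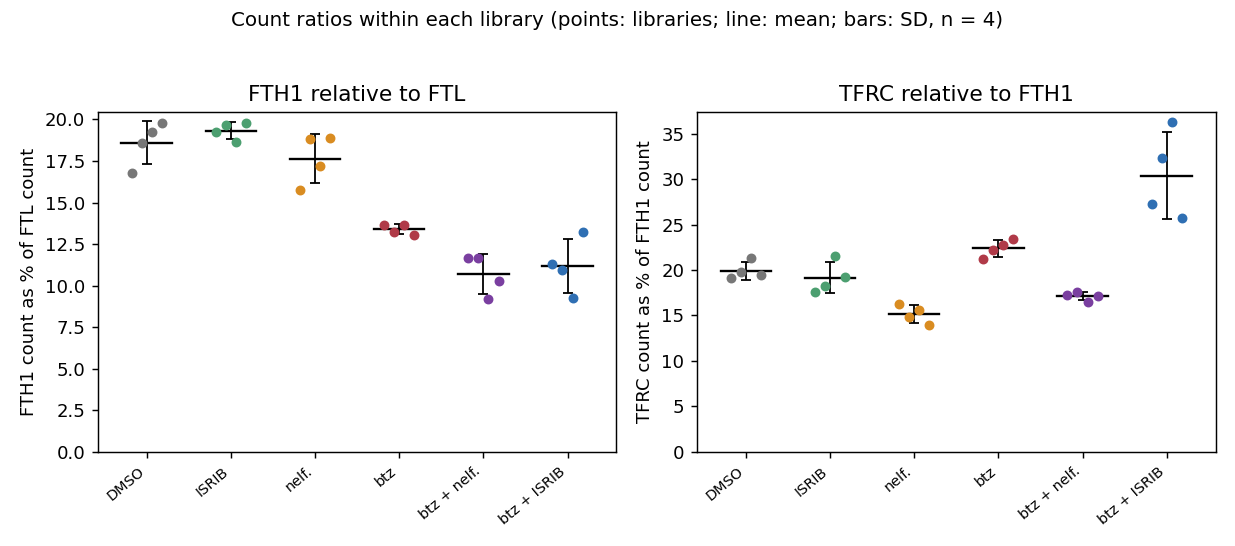
FTH1 count as a percentage of the FTL count (left) and TFRC count as a percentage of the FTH1 count (right) in the 6 treatments, with a point per library, the mean as a line and the SD as bars (n = 4). The FTH1 share is 18.6% ± 1.3 in DMSO and 13.4% ± 0.302 in bortezomib, and the TFRC share is highest with ISRIB added to bortezomib, 30.4% ± 4.83.

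TFRC encodes transferrin receptor 1, the main route of transferrin-bound iron into dividing cells (ENSG00000072274, GRCh37 chr3:195739382-195809024, minus strand). DMSO libraries held 144, 161, 182 and 175 CPM and bortezomib libraries 215, 213, 243 and 261 CPM. On this scale the groups did not overlap. The log2 fold change was 0.49 (SE 0.0852, adjusted p = 9.51e-06), but under library totals alone it was −0.00389 (adjusted p = 0.972, range over the alternatives 1.58e-07 to 0.972), so that a higher TFRC level is one relative to the bulk of genes and not per counted read.

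On the TMM scale, adding nelfinavir undid this difference in TFRC. The libraries held 158, 153, 133 and 135 CPM, all below every bortezomib library and reaching into the DMSO range. TFRC fell by 0.69 on the log2 scale against bortezomib (1.61-fold, SE 0.0864, adjusted p = 2.29e-07), and the call held in each of the 10 alternative settings. Under library totals alone the value was −0.722, but bortezomib then stood at −0.00389 against DMSO, so there was no rise to undo. With ISRIB added, TFRC remained at 218, 254, 234 and 246 CPM, a difference of 0.03 from bortezomib (95% CI −0.14 to 0.20, adjusted p = 0.867). Nelfinavir alone gave 161 ± 4.43 CPM (SD, n = 4) and ISRIB alone 171 ± 5.41 CPM (SD, n = 4), both overlapping DMSO at 165 ± 16.7 CPM (SD, n = 4).

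Whether nelfinavir acted differently with and without bortezomib was tested directly, as the change on adding it to bortezomib minus its change in DMSO. This interaction was called in 4 of the 8 genes, 1 with a positive value and 3 with negative ones, where 9.74% and 10% of all genes were called. For TFRC it was −0.65 (SE 0.121, adjusted p = 0.00018), for FTH1 −0.66 (SE 0.128, adjusted p = 0.000289), for FTL −0.41 (SE 0.103, adjusted p = 0.00422) and for NCOA4 0.40 (SE 0.124, adjusted p = 0.0205). FTH1 moved in opposite directions, up with nelfinavir alone and down when it was added to bortezomib, whereas FTL rose only in the absence of bortezomib and TFRC fell only in its presence. The signs of the 4 interactions were the same in all 10 alternative settings, library totals among them. The same interaction for ISRIB was called in 1 gene, FTH1, at −0.49 (SE 0.128, adjusted p = 0.0184), where 2.93% of all genes were called with positive and 1.89% with negative values, and that call ended without DMSO replicate 1 (−0.45, adjusted p = 0.0531).

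**Figure D4:**
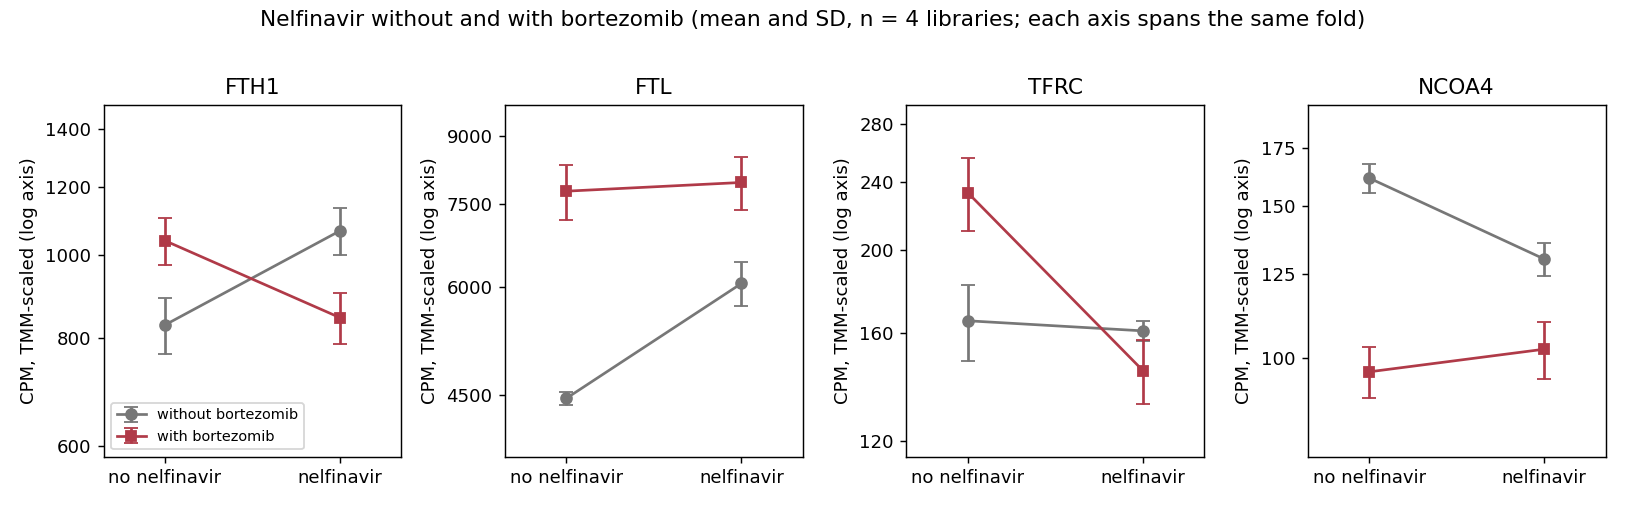
Mean level in CPM (y axis, log scale spanning the same fold in each panel) of FTH1, FTL, TFRC and NCOA4 without and with nelfinavir (x axis), in the absence (circles) and presence (squares) of bortezomib, with the SD as bars (n = 4). On this TMM scale the lines cross for FTH1, with interaction −0.66, and for TFRC, with interaction −0.65, whereas under library totals alone bortezomib without nelfinavir stands at −0.17 and −0.00389 against DMSO.

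The TFRC count was also set against the FTH1 count within a library, mRNA of an uptake receptor against mRNA of a storage protein, and says nothing of uptake or storage themselves. It was 19.1%, 19.8%, 21.4% and 19.4% in DMSO, 16.3%, 14.8%, 15.5% and 13.9% in nelfinavir and 21.2%, 22.3%, 22.7% and 23.4% in bortezomib. It was 17.3%, 17.6%, 16.5% and 17.1% with nelfinavir added to bortezomib and 27.3%, 32.4%, 36.3% and 25.7% with ISRIB added. Nelfinavir lay below its comparison group and ISRIB with bortezomib above it, without overlap. The log2 differences were −0.40 for nelfinavir against DMSO, −0.39 for nelfinavir added to bortezomib and 0.43 for ISRIB added to bortezomib, each at p = 0.0286 by exact permutation and at an adjusted p of 0.0571, which misses the threshold. The adjusted p of all 3 became 0.0476 without DMSO replicate 3 or replicate 4 of the ISRIB combination, at an unchanged exact p, because 1 further test of the 10 then reached p = 0.0286. Leaving out bortezomib replicate 1, 2, 3 or 4 raised it instead. Both nelfinavir differences then had an adjusted p of 0.0714, and the ISRIB difference an exact permutation p of 0.0571 (adjusted 0.0952 to 0.114). Bortezomib against DMSO differed by 0.17 (exact permutation p = 0.0571, adjusted 0.0816) with an overlap of 1 DMSO library, and by 0.203 without that DMSO replicate 3 (exact permutation p = 0.0286, adjusted 0.0476), and ISRIB against DMSO by −0.06 (exact permutation p = 0.457, adjusted 0.457).

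TFR2, a second transferrin receptor made mostly by liver cells and part of the sensing that sets hepcidin, was a gene of few counts (ENSG00000106327, GRCh37 chr7:100218039-100240402, minus strand). Its counts were 65, 64, 52 and 67 in DMSO and 16, 26, 20 and 20 in bortezomib, or 7.55, 8.33, 7.27 and 8.21 against 3.42, 5.04, 4.22 and 4.32 CPM. Nelfinavir libraries held 10.6, 12.6, 12.6 and 13.1 CPM. The receptor thus lay above DMSO in all nelfinavir libraries and below it in all bortezomib libraries. It fell by 0.88 with bortezomib (SE 0.253, adjusted p = 0.00392), and the value under library totals alone was −1.37. The rise with nelfinavir was 0.64 (SE 0.221, adjusted p = 0.0379). This call ended without filter (adjusted p = 0.0941) and with counts thinned to the smallest library (adjusted p = 0.0691). Apart from left-out libraries, its adjusted p over the alternatives ranged from 0.00177 to 0.0941. The call also ended on leaving out DMSO replicate 1, 2, 3 or 4 or nelfinavir replicate 2, 3 or 4, at adjusted p between 0.0693 and 0.1 and values between 0.61 and 0.66.

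In ISRIB all 4 TFR2 values, 5.42, 6.56, 5.22 and 6.41 CPM, lay below all DMSO values. The log2 difference was −0.41 (95% CI −0.88 to 0.06, adjusted p = 0.978), which passed no threshold. Both combinations stayed near bortezomib, with 4.01, 4.77, 4.52 and 3.75 CPM when nelfinavir was added and 1.56, 2.93, 6.10 and 4.69 CPM when ISRIB was added. TFR2 with nelfinavir added therefore showed none of the higher level seen with nelfinavir alone, yet the interaction, −0.64 (95% CI −1.37 to 0.08), had an adjusted p of 0.214.

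SLC40A1 encodes ferroportin, the only known iron exporter of mammalian cells (ENSG00000138449, GRCh37 chr2:190425316-190448484, minus strand). DMSO libraries held 3.37, 4.16, 2.94 and 4.53 CPM, from 21 to 37 counts each, and bortezomib libraries 10.1, 5.04, 4.65 and 8.21 CPM. With ISRIB added to bortezomib they held 16.2, 14.9, 8.21 and 11.6 CPM. All bortezomib libraries exceeded all DMSO libraries, the lowest of them narrowly, and the ISRIB combination overlapped bortezomib. SLC40A1 rose by 0.89 with bortezomib (SE 0.304, adjusted p = 0.0142), but that call ended without bortezomib replicate 1 (0.61, adjusted p = 0.114) or 4 (0.75, adjusted p = 0.0569) and under library totals alone (0.39, adjusted p = 0.264, range over the alternatives 0.0103 to 0.264).

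A further rise of 0.87 came with ISRIB on top of bortezomib (SE 0.288, adjusted p = 0.0432). It was not called without bortezomib replicate 2 (0.74, adjusted p = 0.122) or 3 (0.71, adjusted p = 0.128), or without replicate 1 (0.73, adjusted p = 0.133), 2 (0.78, adjusted p = 0.106) or 4 (0.91, adjusted p = 0.0546) of the combination. The call also ended under library totals alone (adjusted p = 0.0606) or when only the groups compared were fitted (adjusted p = 0.0872). Apart from left-out libraries, the adjusted p over the alternatives ranged from 0.026 to 0.0872. With nelfinavir added the values were 7.61, 14.5, 5.70 and 7.32 CPM, among them 1 library far above the other 3, and the difference from bortezomib was 0.32 (95% CI −0.28 to 0.92, adjusted p = 0.435). Nelfinavir alone stood lowest of all groups, at 2.69 ± 0.589 CPM (SD, n = 4), with a difference from DMSO of −0.48 (adjusted p = 0.341), and ISRIB alone at 3.97 ± 0.744 CPM (SD, n = 4).

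HAMP encodes hepcidin, the liver hormone that makes ferroportin leave the membrane (ENSG00000105697, GRCh37 chr19:35771619-35776046, plus strand). It was almost uncounted. The counts were 1, 2, 0 and 0 in DMSO, 0, 6, 1 and 6 in bortezomib, 3, 3, 1 and 9 in bortezomib with nelfinavir and 1, 1, 0 and 1 in bortezomib with ISRIB, and the ISRIB and nelfinavir groups had 1 count each. The groups overlapped in single libraries. Pooled over the group, bortezomib was 7.13 times DMSO (13 counts against 3, exact 95% interval 1.96 to 39) and the nelfinavir combination 8.62 times (16 against 3, interval 2.47 to 46.2), intervals that cover counting error only. Tested without the filter on low counts, bortezomib against DMSO gave an adjusted p of 0.0925. With 1 library left out the filter asks for fewer libraries. HAMP then passed it only through its highest libraries, with 6 and 6 counts in bortezomib and 9 in bortezomib with nelfinavir. Those fits test a gene let in by its high bortezomib libraries, so their calls cannot support a rise. HAMP was called without DMSO replicate 2 (log2 3.45, adjusted p = 0.022), bortezomib replicate 1 (2.95, adjusted p = 0.0128) or bortezomib replicate 3 (2.84, adjusted p = 0.0233). It was not called without DMSO replicate 1 (2.69, adjusted p = 0.0549), 3 (2.27, adjusted p = 0.08) or 4 (2.23, adjusted p = 0.0857), and had too few counts to be tested without bortezomib replicate 2 or 4, so that the depth does not settle it.

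The genes of the iron regulatory proteins were called in no comparison with TMM and all libraries, but both were called lower with bortezomib under library totals alone. IREB2, the regulatory protein that is controlled by its own degradation (ENSG00000136381, GRCh37 chr15:78729773-78793795, plus strand), ranged from 73.4 to 89.4 CPM in DMSO, from 84.7 to 104 CPM in bortezomib and from 100 to 113 CPM with nelfinavir added. Only the last of these groups lay wholly above DMSO. Against DMSO bortezomib gave 0.17 (SE 0.0902, adjusted p = 0.11), and −0.33 under library totals alone (adjusted p = 0.00482, range over the alternatives 0.00482 to 0.544). Adding nelfinavir gave 0.19 over bortezomib (SE 0.0909, adjusted p = 0.11), which became a call without bortezomib replicate 2 (0.29, adjusted p = 0.0317) or replicate 1 of the combination (0.28, adjusted p = 0.036). Adding ISRIB gave −0.18 (SE 0.092, adjusted p = 0.219), and the highest and lowest group means, 108 CPM with nelfinavir added and 79.3 CPM in ISRIB, were joined by neighbours that all overlapped.

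ACO1 works as cytosolic aconitase when it holds an iron-sulfur cluster and binds IREs when it does not (ENSG00000122729, GRCh37 chr9:32384601-32454767, plus strand). Its group means ran from 30.1 ± 2.94 CPM in bortezomib to 38.3 ± 5.54 CPM in ISRIB (SD, n = 4 each), and all neighbours in the order overlapped. All bortezomib libraries, from 25.7 to 31.8 CPM, lay below all DMSO libraries, from 32.2 to 41.4 CPM, yet the log2 difference of −0.23 (SE 0.134) had an adjusted p of 0.16. Under library totals alone it was −0.72 (adjusted p = 1.65e-05, range over the alternatives 1.65e-05 to 0.221), or −0.23 relative to the median of all genes.

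NCOA4 delivers ferritin to autophagy, and is placed here by its symbol alone, as the annotation used for positions gives it another gene identifier than the counts do (ENSG00000138293 in the counts, GRCh37 chr10:51565199-51590734, plus strand). DMSO libraries held 156, 156, 167 and 168 CPM, nelfinavir libraries 123, 135, 135 and 128 CPM and bortezomib libraries 102, 91.1, 102 and 90.1 CPM. These were steps down without overlap, the reverse of those of FTL. NCOA4 fell 1.24-fold with nelfinavir (log2 −0.31, SE 0.0858, adjusted p = 0.00807) and 1.68-fold with bortezomib (log2 −0.75, SE 0.088, adjusted p = 1.01e-08), and under library totals alone the bortezomib value was −1.25.

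In the combinations NCOA4 kept the bortezomib level. The libraries held 106, 111, 92.3 and 101 CPM with nelfinavir added and 86.8, 97.97, 101 and 107 CPM with ISRIB added, and both groups overlapped bortezomib alone. The differences were 0.09 (95% CI −0.10 to 0.27, adjusted p = 0.501) and 0.03 (95% CI −0.15 to 0.21, adjusted p = 0.883). The fall with nelfinavir was thus not added to that with bortezomib, as the interaction of 0.40 shows. ISRIB alone split into a pair of libraries at 176 and 181 CPM and a pair at 148 and 149 CPM, on either side of the DMSO values, with a difference of 0.02 (adjusted p = 1).

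**Figure D5:**
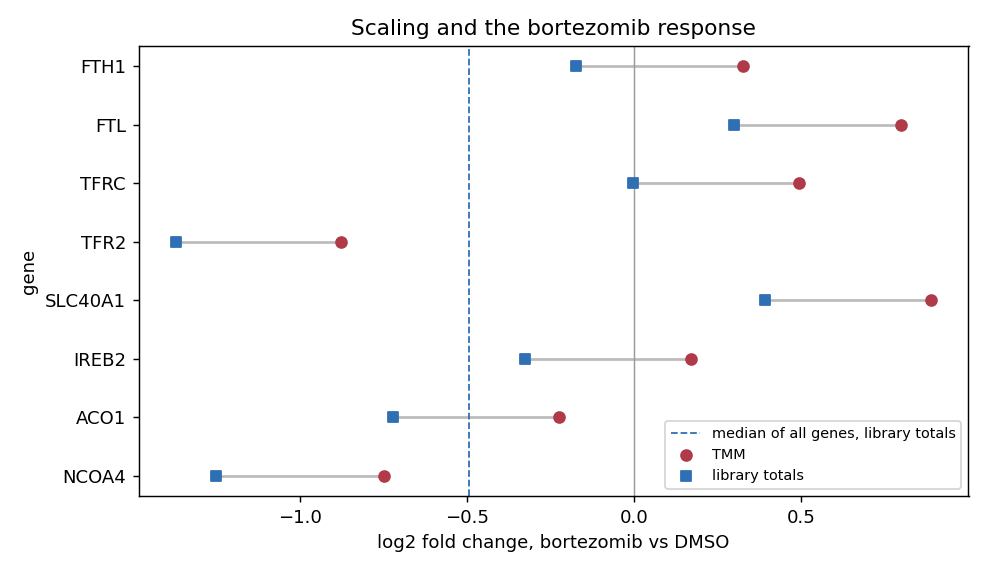
Log2 fold change in bortezomib against DMSO (x axis) of the 8 genes tested (y axis), with TMM scaling (circles) and with library totals alone (squares), and the median of all genes under library totals (dashed line, −0.495). FTH1, TFRC and IREB2 change sign between the scalings, and FTL, TFR2 and NCOA4 keep both sign and call.

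Around these genes, other parts of iron handling were followed through lists drawn up from general knowledge. Of 16 tested genes of iron transport, 3 were called higher and 7 lower with bortezomib, where 27.6% of all genes were called higher and 25.8% lower, with a median log2 fold change of −0.13 against 0.0017 over all genes. SLC25A28 (mitoferrin 2, which brings iron into mitochondria) rose by 1.04 (SE 0.149, adjusted p = 4.39e-07), from 11.1 ± 0.515 to 23 ± 3.99 CPM (SD, n = 4). The STEAP family metalloreductases STEAP2 and STEAP1 fell by 1.3 (SE 0.201, adjusted p = 1.6e-06) and by 1.17 (SE 0.179, adjusted p = 1.33e-06), and ceruloplasmin (CP), the ferroxidase that works with ferroportin, fell by 1.32 (SE 0.407, adjusted p = 0.00651). The other 2 genes called higher held less firmly, MCOLN1 (0.95) losing its call without DMSO replicate 1 (0.80) or 3 (0.78) or bortezomib replicate 1 (0.86) or 2 (0.57), at adjusted p between 0.0845 and 0.257, and PCBP2 (0.23) without DMSO replicate 2 (0.16) or bortezomib replicate 1 (0.18), 2 (0.19), 3 (0.16) or 4 (0.17), at adjusted p between 0.0824 and 0.135, so that without bortezomib replicate 1 or 2 the list had 1 gene called higher, as it had with upper-quartile factors (adjusted p = 0.055 for MCOLN1 and 0.121 for PCBP2). Both calls also ended without filter (adjusted p = 0.0894 and 0.226). With library totals as the scaling, MCOLN1 stood at 0.458 (adjusted p = 0.306), and PCBP2 was called lower, at −0.271 (adjusted p = 0.00772). Under library totals alone the calls in this list were 1 higher and 10 lower, where 11.7% and 49.4% of all genes were called, with SLC25A28 at 0.55, STEAP1 at −1.67, STEAP2 at −1.8 and CP at −1.82.

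Among 9 tested genes of ferritin turnover and IRP control, 4 were called higher and 0 lower with bortezomib (27.6% and 25.8% of all genes), but 2 and 4 under library totals alone (11.7% and 49.4% of all genes). TAX1BP1, an autophagy receptor that takes part in ferritin turnover with NCOA4, rose by 1.45 (SE 0.0915, adjusted p = 4.16e-15) with bortezomib and by 0.46 (SE 0.0902, adjusted p = 0.000253) with nelfinavir, against the fall of NCOA4 in both. BACH1, a repressor of ferritin and heme oxygenase genes, rose by 1.28 with bortezomib (SE 0.186, adjusted p = 5.64e-07). Under library totals alone the bortezomib values were 0.955 for TAX1BP1 and 0.785 for BACH1, both still called. The list of further mRNAs known for an IRE held 4 and was not complete, as SLC11A2 (DMT1) was placed with iron transport. SLC11A2 fell by 0.80 with bortezomib (SE 0.101, adjusted p = 3.72e-08). Of the 4 in the list, 3 were called higher with bortezomib and 0 lower (27.6% and 25.8% of all genes), and 1 was called higher under library totals alone (11.7% and 49.4% of all genes). EPAS1, 1 of the 3 at 0.28, lost its call without DMSO replicate 3 (0.24) or bortezomib replicate 1 (0.21), 2 (0.23) or 3 (0.21), at adjusted p between 0.0567 and 0.0978, and with upper-quartile factors (adjusted p = 0.0775) or without filter (adjusted p = 0.134). Its value turned to −0.215 under library totals alone (adjusted p = 0.0717).

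Of 22 tested genes that control hepcidin, 5 were called higher and 6 lower with bortezomib, near the 27.6% and 25.8% of all genes, and 2 and 12 under library totals alone, where 11.7% and 49.4% of all genes were called. GDF15, a secreted stress factor, rose by 4.64 (SE 0.147, adjusted p = 5.11e-23), from 164 ± 31.4 to 4090 ± 421 CPM (SD, n = 4), and by 1.94 with nelfinavir (SE 0.132, adjusted p = 1.68e-13). BMP4, a ligand of the BMP pathway that drives HAMP, fell by 1.67 with bortezomib (from 495 ± 93 to 156 ± 5.5 CPM, SD over 4 libraries, adjusted p = 3.32e-13) and by 0.67 with nelfinavir (SE 0.12, adjusted p = 8.1e-05). SMAD7, an inhibitor of the same pathway, fell by 1.43 with bortezomib (SE 0.296, adjusted p = 0.000123) and by 1.01 with nelfinavir (SE 0.271, adjusted p = 0.00654).

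Of 22 tested genes of heme synthesis and breakdown, 4 were called higher and 10 lower with bortezomib (27.6% and 25.8% of all genes), with a median of −0.43, and 1 and 13 under library totals alone (11.7% and 49.4% of all genes). ALAD, an early enzyme of heme synthesis, fell by 1.64 (SE 0.202, adjusted p = 2.73e-08), while BLVRB, a biliverdin reductase, rose by 1.87 (SE 0.133, adjusted p = 1.01e-13). HMOX1, which frees iron from heme, rose by 0.62 (SE 0.15, adjusted p = 0.000728), a call that ended under library totals alone, at 0.12. NFE2L2, a transcription factor of the oxidative stress response that acts on ferritin and HMOX1 genes, stood at 0.26 (SE 0.118, adjusted p = 0.066) and at −0.24 under library totals alone, and was called with a replicate block (adjusted p = 0.03) or with only the groups compared (adjusted p = 0.00988), the lowest of its alternatives. Of 27 tested genes of iron-sulfur cluster assembly, 6 were called higher and 7 lower, again near the 27.6% and 25.8% of all genes, and 2 and 14 under library totals alone (11.7% and 49.4% of all genes). With TMM, HSPA9 stood at 1.02 (SE 0.102, adjusted p = 3.55e-10) and GLRX5 at −1.35 (SE 0.0959, adjusted p = 1.01e-13), and under library totals alone at 0.519 and −1.84. HSPA9 is a chaperone of this assembly and GLRX5 its glutaredoxin.

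For nelfinavir alone and for both additions to bortezomib, the number of genes called moved with single libraries in several of the lists, so some single genes are given in place of counts, each called in every alternative and with each library left out. With nelfinavir alone SLC11A2 (DMT1, which moves iron out of endosomes) fell by 0.37 (SE 0.0971, adjusted p = 0.00625). ISRIB alone called 0 genes in all 6 lists, as it called 0% of all genes. With nelfinavir added to bortezomib SLC11A2 rose by 0.45 over bortezomib alone (SE 0.103, adjusted p = 0.00127). Its mean level was 51 CPM in bortezomib, at −0.80 against DMSO, and 69.6 CPM with nelfinavir added. The DMSO mean was 89.1 CPM and that of nelfinavir alone 69.2 CPM, so the rise made up only part of the bortezomib fall. In the same comparison ID1, a readout of BMP signalling, fell by 1.73 (SE 0.151, adjusted p = 1.46e-10). EPAS1, whose mRNA bears an IRE, rose by 0.68 (SE 0.0959, adjusted p = 1.76e-06). With ISRIB added EPAS1 again rose, by 0.87 (SE 0.0959, adjusted p = 5.02e-08), and BLVRB fell by 0.83 (SE 0.13, adjusted p = 2.94e-05).

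The patterns of the 8 genes over the 24 libraries were not alike. As a description of likeness, Pearson's r of log2 CPM was −0.93 between FTL and NCOA4 and −0.83 between TFR2 and SLC40A1, but 0.15 between FTH1 and FTL and 0.11 between FTH1 and TFRC. The libraries behind each r are the same 24 and fall into 6 treatments. The genes most like FTL were CSNK1A1 (r = 0.98), ATF3 (r = 0.98) and OSGIN1 (r = 0.98). Those most like NCOA4 were NRP1, SKP2 and HMGA2, with r between 0.948 and 0.953. ACSL5, SOD2 and C19orf77 came closest to TFRC (r from 0.913 to 0.932), AGXT, CNKSR3 and RHOBTB3 to TFR2 (0.868 to 0.898), CYR61, ENTPD7 and TMEM189 to SLC40A1 (0.912 to 0.919), and PCBP2, RBM10 and FBXO11 to IREB2 (0.858 to 0.866). FTH1 and ACO1 had looser company, CGGBP1, OXA1L and ZNF664 (0.779 to 0.803) and FHOD1, RBMXL1 and TOMM22 (0.665 to 0.680).

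Promoters were taken from RefSeq on GRCh38.p14 as windows of 300 bases around the start site, in which 7 of the 9 genes matched by symbol (not FTH1 or TFR2). The antioxidant response element TGACNNNGC, searched on both strands, was found for NCOA4 alone among the 7, and in 13.3% of all 35116 windows. TGATGNAA, the C/EBP-ATF element, was found for none of the 7, and in 3.62% of all windows. A match or its absence describes these letters in these windows and nothing more.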

How the data were processed

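The authors made libraries with the QuantSeq 3′ mRNA-Seq kit (FWD), trimmed reads with cutadapt 2.8 and aligned them with STAR to hg19 (GRCh37), per the submitters' processing notes, in the nf-core RNA-Seq pipeline with Ensembl gene models. The deposited values are unnormalized read counts per gene. Sources used here do not give the counting program, the strand setting or any use of molecular identifiers, and intervals on counts cover counting error only.

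Counts were filtered with filterByExpr (minimum count 5, minimum total 25), scaled by TMM and fitted in 1 model of all 24 libraries with a coefficient per treatment, using edgeR 4.0.16 in R 4.3.3. The quasi-likelihood test of edgeR gave p-values, adjusted by the Benjamini-Hochberg method over 12685 genes, and its use was tested on simulated data. The simulation changed few genes, as many up as down, and so did not test the choice of scaling. Count ratios of FTH1 to FTL and TFRC to FTH1 were compared by two-sided exact permutation tests, adjusted over 10 tests. Every pair of libraries within a group differed by more than sampling noise (lowest chi-square 2.14 per degree of freedom).

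The genes and the lists (iron transport, ferritin and IRP control, hepcidin control, heme, iron-sulfur assembly, other IRE-bearing mRNAs, and hepatocyte, fibroblast, immune and endothelial markers) were chosen with earlier results of these data known. Named were the 9 genes, from each list up to 3 called genes per direction with the largest change (up to 2 for the additions to bortezomib), the 3 genes of highest Pearson r with each gene (log2 CPM, prior count 2), and NFE2L2, HMOX1 and GDF15. Not all that this rule allows are described, and some list genes and 1 hairpin are not reported here. BEST1, the genes with hairpins and the markers were named for position, sequence or list.

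Alternatives were RLE or upper-quartile factors, library totals, mitochondrially encoded genes left out, the DESeq2 1.42.0 test, no filter, the default filter (10 and 15), only the groups compared, a replicate block, counts thinned to the smallest library, and each library left out. For the list genes these alternatives were chosen after seeing the data. Positions came from GENCODE on GRCh37, and near copies of transcripts from blastn 2.17.0.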

Additional observations from a re-analysis of the deposited data

Results flagged for a closer look

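ACO1 had a library apart from the other 3 of its group in 3 treatments. DMSO replicate 2 held 41.4 CPM, with the nearest other at 33.6 CPM, nelfinavir replicate 4 held 27.1 CPM (nearest 32.2) and bortezomib replicate 1 held 25.7 CPM (nearest 31.3), by Dixon's criterion for a single distant value. Of 48 groups looked at over the 8 genes these were the 3 found, and chance alone gives about 1 in 20. The changes with nelfinavir depended on bortezomib in 4 genes, by the interaction term of edgeR's model: −0.66 for FTH1, −0.41 for FTL, −0.65 for TFRC and 0.40 for NCOA4. For ISRIB the interaction was −0.49 in FTH1. The causes were not tested.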

How the results depend on the processing

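For bortezomib against DMSO the scaling changed directions. Under library totals alone it gave −0.17 for FTH1, −0.00389 for TFRC and −0.33 for IREB2, and −0.271 for PCBP2, −0.215 for EPAS1 and −0.24 for NFE2L2 among the list genes (alternatives chosen after seeing the data), against positive values with TMM. All genes shift together by the change of scale. Library totals and the fit of only the groups compared each left 1 gene called where ISRIB was added to bortezomib, in place of 2. With each library left out in turn, the genes called ranged from 1 to 3 for nelfinavir added to bortezomib, from 1 to 2 for ISRIB added and from 0 to 1 for the ISRIB interaction. For nelfinavir alone, 2 genes were called higher in place of 3 without DMSO replicate 1, 2, 3 or 4 or nelfinavir replicate 2, 3 or 4. Fits without a library have fewer samples, and the cause was not tested further. The nelfinavir interaction was called in 4 genes in every such fit. Over all genes, fitting only the groups compared changed the calls for nelfinavir from 1121 to 1948 lower, for nelfinavir added to bortezomib from 1975 higher and 1694 lower to 1284 and 962, and for ISRIB added from 876 and 677 to 510 and 357, and DESeq2 called 436 genes with a negative ISRIB interaction where edgeR called 240. The cause was not tested. For ISRIB against DMSO, 0 of all genes were called as described, 5 higher and 34 lower without filter, and 4 and 76 with only the groups compared, with 0 of the 8 genes among them.

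Same-numbered libraries of different treatments correlated above 0.1 in 10 of 60 pairs, against 7 of 180 with other numbers, a larger share (median r 0.0135 against −0.00644). The labels do not say what libraries of 1 number share. They were treated as unpaired, with a replicate block as an alternative. With the replicate block, 6 genes were called for bortezomib against DMSO, as without it, and it changed no call on the 8 genes. The FTH1 to FTL ratio differed by −0.47 in pairs, where an exact sign-flip test of 4 pairs cannot reach 0.05. The exact tests of the count ratios passed the adjustment only without DMSO replicate 3 or replicate 4 of the ISRIB combination, where 1 more of the 10 tests reached the lowest p and the adjustment of all became milder. With each library of the groups left out, the FTH1 to FTL difference ran from −0.519 to −0.44 for bortezomib and from −0.358 to −0.187 with ISRIB added, and the TFRC to FTH1 difference from 0.147 to 0.203 for bortezomib, −0.433 to −0.359 for nelfinavir and 0.338 to 0.504 with ISRIB added. Over the alternatives and left-out libraries, 1242 values of list genes were as before, 136 lost a call, 5 gained one and 3 changed sign. Few counts limit TFR2 and SLC40A1, and HAMP most of all. With the lowest and highest value over left-out libraries among the alternatives, 631 of 672 values of the 8 genes kept direction and side of the threshold, 9 lost their call, 2 gained one and 30 changed sign, 3 of these where a fit called the value and 27 where neither did.

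The uncalled values that changed sign stayed within 0.135 of 0 after it. Under library totals, NCOA4 went to −0.00119 with ISRIB, −0.035 with ISRIB added to bortezomib and −0.0339 in the ISRIB interaction, TFRC to −0.0324 with ISRIB added and FTL to −0.00149 with nelfinavir added. Upper-quartile factors gave −0.00915 for that FTL value. TFR2 with nelfinavir added went from −0.00284 to 0.0062 with RLE factors, 0.00453 with DESeq2, 0.0411 without filter, 0.00218 with the replicate block and 0.0546 with thinned counts. In the ISRIB interaction NCOA4 went to −0.00701 with RLE factors, −0.00618 without mitochondrially encoded genes and −0.00741 with DESeq2, and TFRC to 0.00791 with thinned counts. With single libraries left out, values ran from −0.0989 to 0.011 for TFRC and −0.0302 to 0.0586 for IREB2 with nelfinavir. With ISRIB they ran from −0.0162 to 0.0934 for TFRC, −0.016 to 0.183 for SLC40A1 and −0.0347 to 0.0605 for NCOA4. For TFR2 with nelfinavir added the range was −0.057 to 0.135, and with ISRIB added it was −0.00999 to 0.0874 for TFRC, −0.498 to 0.0983 for TFR2 and −0.0145 to 0.0822 for NCOA4. In the ISRIB interaction it was −0.0626 to 0.0468 for TFRC, −0.0903 to 0.507 for TFR2 and −0.0313 to 0.0669 for NCOA4. The cause was not tested.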
